A study of Mus musculus with 6 samples.

Results

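The cells described here are inflammatory monocytes that carry RNA of both Ly6c2 and Ccr2, taken from the injured rotator cuff enthesis, the attachment of tendon to bone. They were selected on measured values: a barcode needed at least 1000 unique molecular identifiers (UMIs, one count per captured RNA molecule), 200 detected genes and no more than 10% mitochondrial UMIs. It also needed at least 1 UMI of Ccr2 and 2 of Ly6c2, at most 2 UMIs of C1qa, C1qb and C1qc together, and none of Mki67, Top2a, Siglech or Flt3. S100a8 with S100a9 had to stay under 2% of the cell's UMIs and Col1a1, Col1a2 and Col3a1 together under 0.5%, which set aside neutrophils and mesenchymal cells. Of 85339 cells that passed quality control, 3033 met the rule. They came from all 6 libraries, with 834, 598 and 474 in wild-type replicates 1 to 3 and 257, 466 and 404 in Nlrp3-/- replicates 1 to 3.

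All mice were aged 12 to 14 weeks and had undergone enthesis injury and repair, and tissue was harvested 7 days post injury. Wild-type mice were C57BL/6, and Nlrp3-/- mice carried a knockout of Nlrp3 in every cell, not only in monocytes. The 2 groups came from different suppliers, and the strain of the knockouts was not given in the sources used here. Entheses were pooled for sequencing with droplet-based 3′ chemistry, and with n = 3 of each genotype the sources used here did not tie animals to libraries, so p-values measure the spread between libraries, which may be partly technical. Libraries held between 97042713 and 134901999 UMIs. The monocytes had a median of 4424 to 5365 UMIs and 1647.5 to 1922.5 genes in the 6 libraries, so their depth was similar in both groups, although the median over all cells of Nlrp3-/- replicate 1 was only 2069 UMIs against 4874 to 7421 elsewhere. Mitochondrial UMIs made up a median of 1.10%, 1.26% and 1.43% of a wild-type monocyte and 1.73%, 2.15% and 1.86% of an Nlrp3-/- monocyte. Of the members, 51 carried a barcode that was also a cell in another library, and 2 of these were members in both.

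Classical monocytes are made in the bone marrow from dividing precursors. The chemokine receptor CCR2 lets them leave the marrow and follow CCL2 into injured tissue, where Ly6C marks the freshly arrived, inflammatory state. Within tissue they lose Ly6C and turn into macrophages or antigen-presenting cells, and they are a main source of IL-1β. NLRP3 is the sensor of the inflammasome, the complex in which caspase-1 cleaves pro-IL-1β.

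The members were first examined for their defining genes, in CPM, the counts per 1e+06 UMIs summed over the members of a library. Ccr2, which the rule used, reached 759, 680 and 989 CPM in the wild-type libraries and 1000, 1281 and 1011 CPM in the Nlrp3-/- libraries. Ly6c2, also used by the rule, reached 1550, 1433 and 1321 CPM against 1106, 1544 and 1252 CPM. Ms4a4c, a membrane protein gene of monocytes, lay at 660, 541 and 402 CPM against 448, 391 and 499 CPM. F13a1, the A chain of coagulation factor XIII, lay at 593, 450 and 586 CPM against 697, 836 and 768 CPM. Ms4a4c and F13a1, which the rule did not use, were present in every library. The groups overlapped in Ly6c2 and Ms4a4c, while F13a1 was higher in every Nlrp3-/- library in unscaled CPM, as 14.8% of all genes were, without passing the edgeR test described below. Ccr2 is given as a description only, since the rule used it. Lyz2, the lysozyme gene of the myeloid lineage, was at 14864 to 20719 CPM, and Plac8 at 3254 to 4826 CPM. To set this against free RNA, each cell was reduced at random to 1000 UMIs. Ms4a4c was then seen in 39.7% ± 7.36 (SD, n = 3 libraries) of wild-type and 31.1% ± 5.09 of Nlrp3-/- monocytes, but in only 0.788% and 1.26% of mesenchymal cells. Plac8 was seen in 16.7% and 14.6% of mesenchymal cells, against 89.3% and 86.2% of monocytes. Lyz2 was seen in 14.4% and 34.9% of mesenchymal cells (highest Nlrp3-/- library 69.5%), against 97.5% and 95.2% of monocytes. F13a1 was seen in 32.8% to 38.8% of wild-type and 47.8% to 52.1% of Nlrp3-/- monocytes. Of the mesenchymal cells, 2.49% and 1.81% met the limits on Ccr2 and Ly6c2. The part of free RNA in the monocyte levels was not tested.

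Many cells lay near the cut points on Ly6c2 and Ccr2. There were 499 members with exactly 2 Ly6c2 UMIs, and 734 cells with 1 Ly6c2 UMI met every other condition. Likewise 453 members had 1 Ccr2 UMI and 862 cells failed for lack of a Ccr2 UMI. These 862 cells were poorer in Lyz2 in every library, at 7568, 8987 and 3945 CPM in wild-type and 3620, 1300 and 2156 CPM in Nlrp3-/- replicates. Members with 1 Ccr2 UMI held Lyz2 at 14200, 17523 and 10559 CPM against 9228, 10422.5 and 9482 CPM. The 862 cells can therefore not all be taken for monocytes. Fewer cells lay near the limit on C1q, with 59 members at 2 UMIs and 21 cells just outside at 3. Between 74.8% and 89.9% of the members of a library had no C1q UMI at all.

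Some members did not look like monocytes. Among the 3033, 94 (3.10%) had at least 2 UMIs of 8 T and NK cell genes such as Cd3e, Trac and Nkg7. They made up 1.20%, 2.01% and 3.16% of members in the wild-type libraries and 3.89%, 4.51% and 6.44% in the Nlrp3-/- libraries, so the groups did not overlap. Their median Lyz2 count was 0 or 1 UMI in 5 libraries and 73 in wild-type replicate 1, against 82 to 105 UMIs in the other members. Ly6c2 is known to be expressed by T and NK cells too. A further 63 members (2.08%) had at least 10 UMIs of Elane, Mpo, Prtn3, Ctsg and Ms4a3, granule and membrane genes of marrow precursors. The summed CPM of B cell markers ranged from 44.4 to 411 in wild-type and from 56.1 to 1988 in Nlrp3-/- members, with all 7 markers seen in at least 1 library of each group, and that of erythroid markers from 8.19 to 27.4 and from 11.4 to 711. The highest of both were in Nlrp3-/- replicate 2. No doublet caller was run. An alternative that dropped members with 2 or more UMIs of another lineage, or with over double the median UMIs, removed 34.8% to 39.0% of the wild-type members of a library but 29.6%, 73.2% and 68.8% of the members of Nlrp3-/- replicates 1 to 3.

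**Figure D1:**
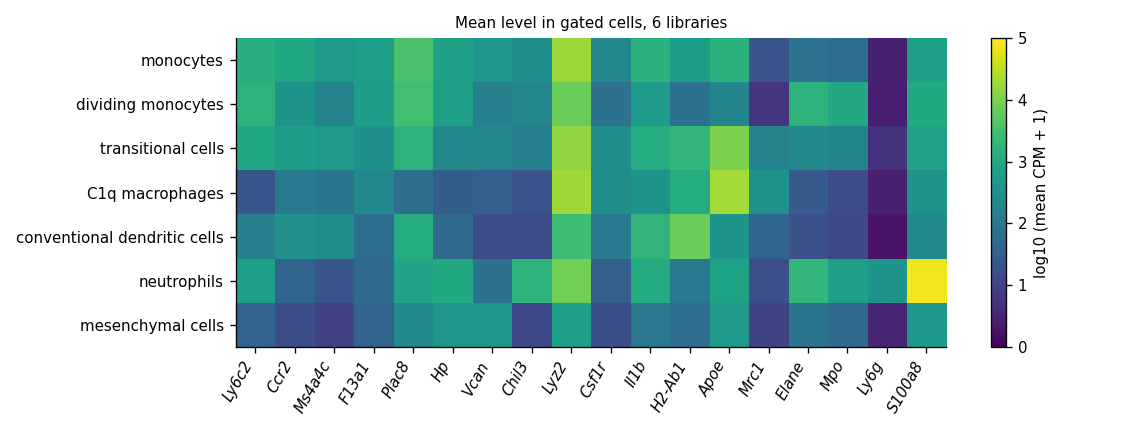
Mean level over the 6 libraries, as log10 of (mean CPM + 1) in colour, of 18 genes (columns) in the monocytes and 6 other gated populations (rows). Monocytes shared Ly6c2 and Plac8 with dividing cells, Lyz2 with C1q macrophages, and were nearly without Ly6g, at a mean of 1.70 CPM.

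The members were then set beside other populations gated from the same libraries. These comparisons describe levels and carry no test, since the gates were drawn on the same counts. Against 6947 macrophages with at least 10 C1q UMIs, 112 of 1677 genes at 100 CPM or more in either population (6.68%) were at least 2-fold higher in monocytes in 6 of 6 libraries, and 118 (7.04%) were at least 2-fold lower. Genes higher in monocytes included Plac8 (median log2 ratio 5.85), Il6 (5.83), the interferon-inducible Ifitm6 (5.44), the orphan receptor Gpr141 (4.79), haptoglobin (Hp, 4.71), the collagenase Mmp8 (4.63), Chil3 (4.45), Prtn3 (3.80), the matrix proteoglycan Vcan (3.78) and the integrin Itgb7 (3.61). Genes lower in monocytes included the chemokine Ccl8 (median log2 ratio -6.98), Fcrls (-6.21), the folate receptor Folr2 (-6.11), Pf4 (-5.58), Vcam1 (-5.52), Gpnmb (-5.47), Ms4a7 (-5.08) and the lipid transfer protein Pltp (-4.41). Apoe, the lipid carrier, lay at 1100 to 2226 CPM in monocytes against 15995 to 23635 CPM in macrophages.

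Against 23678 neutrophils, defined by S100a8 and S100a9, 197 of 1649 genes (11.9%) were 2-fold higher in monocytes in all 6 libraries and 136 (8.25%) lower. Ms4a4c (median log2 ratio 4.68), Ms4a6b (4.09), the lectin Clec4a3 (3.97), the high-affinity IgG receptor Fcgr1 (3.87) and Ms4a6c (3.73) were among the first group. The granule genes Ngp (-8.43), Camp (-8.26), Retnlg (-8.08) and Ltf (-7.84) were among the second, with Ly6g at 0 to 2.76 CPM in monocytes against 315 to 436 CPM in neutrophils.

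Cells on either side of the monocytes along their known life course were also gated. The 294 transitional cells met the rule for Ly6c2 and Ccr2 but had 3 or more C1q UMIs. Of 1600 genes, 7 were 2-fold higher in monocytes than in these in all 6 libraries and 41 lower. Monocytes were lower in Pf4 (median log2 ratio -4.62), Ms4a7 (-4.08) and the mannose receptor Mrc1 (-3.06). They were higher in Il6 (1.82), though not 2-fold in every library (lowest 0.698). As few as 1 Il6 UMI was counted in the transitional cells of a library. The 2166 dividing cells met the rule except for at least 1 UMI of Mki67 or Top2a. Of 1778 genes, 102 (5.74%) were 2-fold higher in monocytes than in these in all 6 libraries and 168 (9.45%) lower. Beyond histones and mitotic genes such as Kif11 (-6.18), monocytes were lower than these in Ms4a3 (-5.03) and Elane (-4.80), which stood at 1510 to 2163 CPM in dividing cells of both genotypes and 32.4 to 186 CPM in monocytes. Monocytes were higher in H2-Aa (3.26), Slfn5 (3.17), Isg15 (3.14) and Apoe (3.06).

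Members of one library differed from each other most in a small set of genes. With each cell at 1000 UMIs, the variance over cells was divided by the mean, which is close to 1 where only sampling differs, and the 6 libraries were averaged. The median over 2054 genes with a mean of at least 0.05 UMI was 1.04, and only 22 genes were above 2 in every library. Ccl5 led at 16.7 (9.28 to 20.97 over libraries), but 70 of the 86 members with at least 5 Ccl5 UMIs were among the 94 with T and NK genes. Without those 94 members Ccl5 dropped from 69.5, 136 and 175 CPM to 10.8, 16 and 76.7 CPM in wild-type libraries, and from 146, 194 and 255 CPM to 0.798, 4.80 and 11 CPM in Nlrp3-/- libraries. Next came Spp1 (osteopontin, 13.4), Cd74 (11.5), the ferritin chain Fth1 (10.3), H2-Eb1 (8.16), Cxcl2 (7.65), H2-Aa (7.14), Apoe (6.85), H2-Ab1 (6.51), Cxcl10 (6.12), Saa3 (5.79), Lyz2 (5.79), Malat1 (5.12), Gm26917 (5.04) and S100a8 (4.52). The 2 genes that members had to carry had lower ratios than these, with 1.60 for Ly6c2 (rank 69) and 1.18 for Ccr2 (rank 262). Both were still above the median. The rule cut off their low values and capped S100a8, so the ratios of these genes are given as description only.

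Antigen-presentation genes varied together. Across the 257 to 834 members of a library, the mean Pearson correlation of log values was 0.85 between H2-Eb1 and H2-Aa, 0.84 between H2-Aa and H2-Ab1, and 0.75 to 0.81 between Cd74, the invariant chain, and each of the 3. Cells of a library share its depth and free RNA, and no p-value was attached. The 5% of members richest in Cd74 held 41.4% to 57.9% of its UMIs in a library, and those richest in Spp1 63.4% to 90.4%. For H2-Aa, H2-Ab1 and H2-Eb1, each ranked on its own, the richest 5% held 54.3% to 89.2% of the UMIs in a library.

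**Figure D2:**
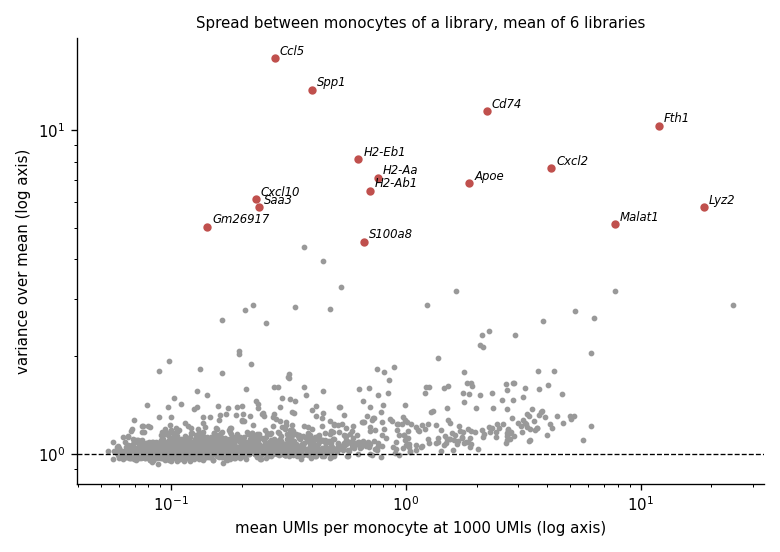
Variance over mean of UMIs per cell (vertical, log axis) against mean UMIs per cell at 1000 UMIs (horizontal, log axis) for 2054 genes in monocytes, each point the mean of 6 libraries. The 15 labelled genes have the largest ratios, from 4.52 for S100a8 to 16.7 for Ccl5, and the dashed line marks 1.

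The question posed by the design is how monocytes differ between wild-type and Nlrp3-/- tissue. Monocytes made up 6.60%, 3.85% and 4.79% of cells in the wild-type libraries and 1.17%, 3.94% and 3.01% in the Nlrp3-/- libraries. The means were 5.08% ± 1.40 and 2.71% ± 1.41 (SD, n = 3), the ranges overlapped, and an exact two-sided permutation test gave p = 0.2, where 0.1 is the smallest p that 3 against 3 libraries allow. Nlrp3-/- replicate 1, the lowest, held 10409 of the 23186 mesenchymal cells. Among cells with a Ptprc (CD45) UMI, the shares were 7.49% ± 1.66 and 4.55% ± 1.65 and no longer overlapped (exact permutation p = 0.1). Without a limit on C1q the shares of all cells were 5.59% ± 1.44 and 2.90% ± 1.45, also without overlap (exact permutation p = 0.1). Among cells neither neutrophil nor mesenchymal they were 10.1% ± 3.19 and 5.91% ± 1.70, with overlap (exact permutation p = 0.2). When every cell was reduced to 1000 UMIs before the rule was applied, they were 1.49% ± 0.373 and 1.07% ± 0.686 (exact permutation p = 0.5). At 2000 UMIs they were 4.08% ± 1.35 and 2.48% ± 1.16 (exact permutation p = 0.2). Fewer cells met the rule at the lower depth. A difference in abundance was therefore not established, and its size depended on the cells counted and on depth.

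The shares of dividing cells, told from members only by Mki67 and Top2a of the rule, did not overlap between the groups. As a share of dividing cells and monocytes together, with each cell at 1000 UMIs, dividing cells made up 13.6%, 13% and 20.4% in the wild-type libraries and 24.6%, 28.5% and 22.9% in the Nlrp3-/- libraries. The other limits of the rule were applied before this reduction. Dividing cells were deeper than members, with medians of 9685 to 14784.5 UMIs in a library. They held the precursor genes Elane and Mpo at 1510 to 2163 and 872 to 1537 CPM. Their Ccr2, which the rule required, was at 307, 289 and 395 CPM in wild-type and 480, 430 and 453 CPM in Nlrp3-/- libraries. The share thus rests on genes the rule used, and whether the limits admitted dividing cells equally in both groups was not tested. All 3 Nlrp3-/- libraries lay above all 3 wild-type libraries, with means of 15.7% ± 4.09 and 25.3% ± 2.86 (SD, n = 3; exact permutation p = 0.1, the smallest possible). Without the reduction in depth the means were 35.6% and 49.6%, and at 2000 UMIs 23.2% and 36.1%, again without overlap.

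**Figure D3:**
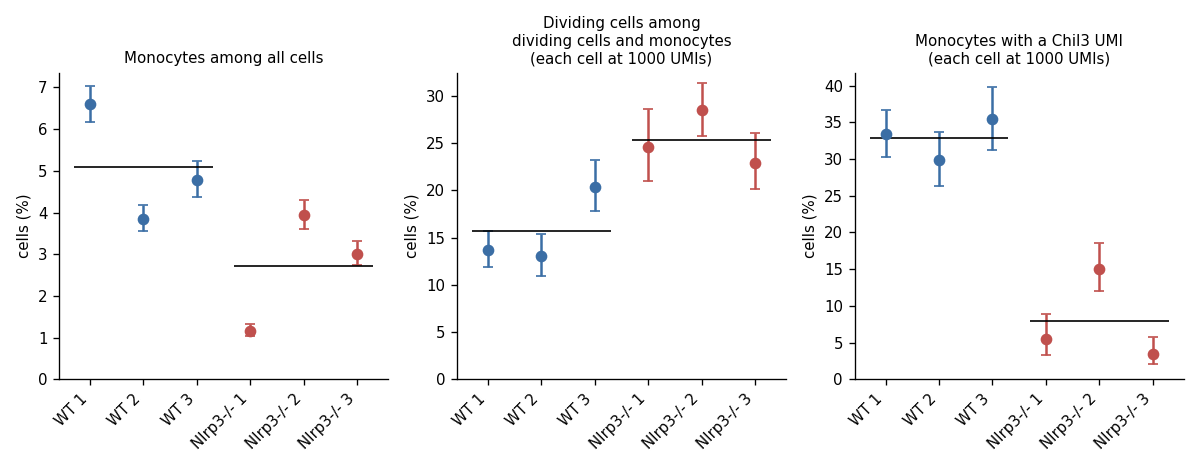
Share of cells (%) by library: monocytes among all cells, dividing cells among dividing cells and monocytes, and monocytes with a Chil3 UMI. Points are libraries with Wilson 95% confidence intervals, which cover counting error only, and lines are group means; the groups overlap in the first panel and not in the other 2. In the second panel the dividing share was 13% to 20.4% in wild-type against 22.9% to 28.5% in Nlrp3-/- libraries.

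Expression was compared with edgeR's quasi-likelihood test on UMIs summed over the members of each library, and 9429 genes were tested. At an adjusted p (Benjamini-Hochberg) below 0.05, 35 genes (0.371%) were called, 12 higher (0.127%) and 23 lower (0.244%) in Nlrp3-/- monocytes. At an unadjusted p below 0.05 there were 1327. One library weighed heavily on this count: 748 of 9546 genes (7.84%) were called without wild-type replicate 3, and 14 to 22 without any other library (19 and 22 without wild-type replicates 1 and 2, and 22, 15 and 14 without Nlrp3-/- replicates 1, 2 and 3). The median log2 fold change over all genes was 0.01 after TMM scaling and 0.15 as a ratio of unscaled mean CPM, so unscaled levels sat slightly higher in the Nlrp3-/- libraries. In unscaled CPM, 1397 genes (14.8%) were higher in every Nlrp3-/- library than in any wild-type library and 414 (4.39%) lower.

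Nlrp3 (chromosome 11, 59541568 to 59566956, plus strand, GRCm38) was checked first. Its level was 181, 230 and 353 CPM in wild-type monocytes, with 46.5%, 49.0% and 74.1% of members holding a UMI, and 0 UMIs were counted in the members of each Nlrp3-/- library. With 3 UMIs allowed per library, it was at least 151-fold lower (edgeR adjusted p = 3.16e-05). The genotype labels of Nlrp3-/- replicates 2 and 3 name other Nlrp genes, although their titles name Nlrp3. Sex differed with genotype: Xist was at 711, 788 and 714 CPM in Nlrp3-/- monocytes and at 0.230, 0 and 0 CPM in wild-type, while Ddx3y and Eif2s3y of the Y chromosome were found only in wild-type. Sex and mouse supplier therefore cannot be told apart from genotype in any comparison of the groups, of cell shares or of genes. Of the 35 called genes, 4 lay on X (of 281 tested), 4 on Y (of 5) and 4 others within 20 Mb of Nlrp3 (of 292). The remaining 22 autosomal genes (of 8833 tested) comprised 6 higher and 16 lower.

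Chil3, the chitinase-like lectin Ym1 secreted by myeloid cells, had the largest level among the autosomal genes called lower. It stood at 563, 438 and 648 CPM in wild-type monocytes and at 99.6, 163 and 45.5 CPM in Nlrp3-/- monocytes. Every Nlrp3-/- library lay below every wild-type library (log2 fold change -2.57 ± 0.35 (SE), edgeR adjusted p = 0.00933). The log2 fold change was -2.59 without Nlrp3-/- replicate 1, where the call was lost (adjusted p = 0.0807), and it was kept without any other library. Fewer cells carried it: at 1000 UMIs, 33.5%, 29.9% and 35.4% of wild-type monocytes and 5.45%, 15% and 3.47% of Nlrp3-/- monocytes had a Chil3 UMI (means 32.9% ± 2.79 and 7.98% ± 6.18, exact permutation p = 0.1). In mesenchymal cells at the same depth the mean shares were 1.55% and 0.730%, below those of monocytes in both groups. In barcodes of at most 100 UMIs, Chil3 was at 832, 310 and 579 CPM in the wild-type and 80.2, 168 and 126 CPM in the Nlrp3-/- libraries. These levels exceeded those of the monocytes in wild-type replicate 1 and Nlrp3-/- replicates 2 and 3. The part of free RNA in the monocyte values was not tested. Untested values in other gated cells were 321 to 380 against 27.9 to 75.2 CPM in dividing cells and 2218 to 3094 against 403 to 920 CPM in neutrophils. The lower levels were thus not particular to the monocytes.

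The Chil3 upstream region is shown because this gene had the highest level of the autosomal genes called lower. The 250 bases before its RefSeq start, at chr3:106167565-106167814 on the minus strand of GRCm38.p6, are given 5′ to 3′, with capitals at matches to the C/EBP-type pattern TTNNGNAA on either strand.
Chil3: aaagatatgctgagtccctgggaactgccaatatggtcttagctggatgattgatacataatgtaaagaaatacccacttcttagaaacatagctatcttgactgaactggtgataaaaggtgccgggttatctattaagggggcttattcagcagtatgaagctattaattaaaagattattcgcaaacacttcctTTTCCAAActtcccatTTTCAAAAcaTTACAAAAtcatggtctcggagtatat
There were 3 matches, at 53, 37 and 27 bases before the start, none overlapping. Such a match is common: 36.8% of 32851 mouse promoters of the same length held at least 1. It describes the letters only and says nothing of binding.

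Il1r2, the decoy receptor that binds IL-1 without signalling, stood at 57.1, 54.3 and 18.7 CPM in wild-type monocytes and 9.34, 8.62 and 8.90 CPM in Nlrp3-/- monocytes. It was lower (log2 fold change -2.48 ± 0.43, edgeR adjusted p = 0.0418), and the call was kept without wild-type replicate 3 but lost without any 1 of the other 5 libraries (adjusted p 0.113 to 0.245), and also with at least 3 Ly6c2 UMIs (0.0861) or dividing cells added (0.0595). Ace, the angiotensin-converting enzyme found on patrolling monocytes, was at 22.1, 17.8 and 18.7 CPM against 4.67, 6.57 and 7.42 CPM (-1.78 ± 0.25, adjusted p = 0.0124). Its call was lost without wild-type replicate 1 or any 1 Nlrp3-/- library (edgeR adjusted p 0.0667 to 0.0946), as it was with likely doublets left out, dividing cells added or no precursor UMI (0.051 to 0.18). Jdp2, a repressor of AP-1 transcription, was at 87.4, 105 and 77.7 CPM against 42.8, 48.4 and 41.0 CPM (-1.19 ± 0.17, adjusted p = 0.013). All 3 fell without overlap, although Jdp2 was called only in the leave-one-out fit without wild-type replicate 3 (adjusted p 0.055 to 0.113 in the other 5). Its call was also lost after thinning, with dividing cells added and without a precursor UMI (edgeR adjusted p 0.0804 to 0.185).

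Further genes called lower were the metal-binding Mt2 (59.0 ± 16.2 against 16.7 ± 1.22 CPM, SD, n = 3), the tubulin-binding Tppp3 (74.0 ± 13.7 against 22.5 ± 9.39), the endosomal adaptor Wdfy1 (34.2 ± 6.41 against 15.1 ± 1.91) and Ss18l2 (37.3 ± 4.15 against 16.1 ± 3.56). Their log2 fold changes were -1.998, -1.83, -1.35 and -1.40. Mt2 lost its call without Nlrp3-/- replicate 2 (edgeR adjusted p = 0.0623) or 3 (0.08) and with dividing cells added (-1.23, 0.208). Tppp3 lost its call only without wild-type replicate 2 (0.0504) or Nlrp3-/- replicate 2 (0.0719) or 3 (0.0687). Wdfy1 lost it without wild-type replicate 1 or Nlrp3-/- replicates 2 and 3 (0.0726 to 0.131), and Ss18l2 without wild-type replicates 1 and 2 or Nlrp3-/- replicates 2 and 3 (0.0758 to 0.142). Both Wdfy1 and Ss18l2 also lost it with likely doublets left out, after thinning and without a precursor UMI (edgeR adjusted p 0.0727 to 0.186). Tpm3-rs7, a near copy of the tropomyosin gene Tpm3 whose reads may be split between copies, went from 178, 98.0 and 226 CPM to 1.56, 1.64 and 3.96 CPM and kept its call in every fit.

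**Figure D4:**
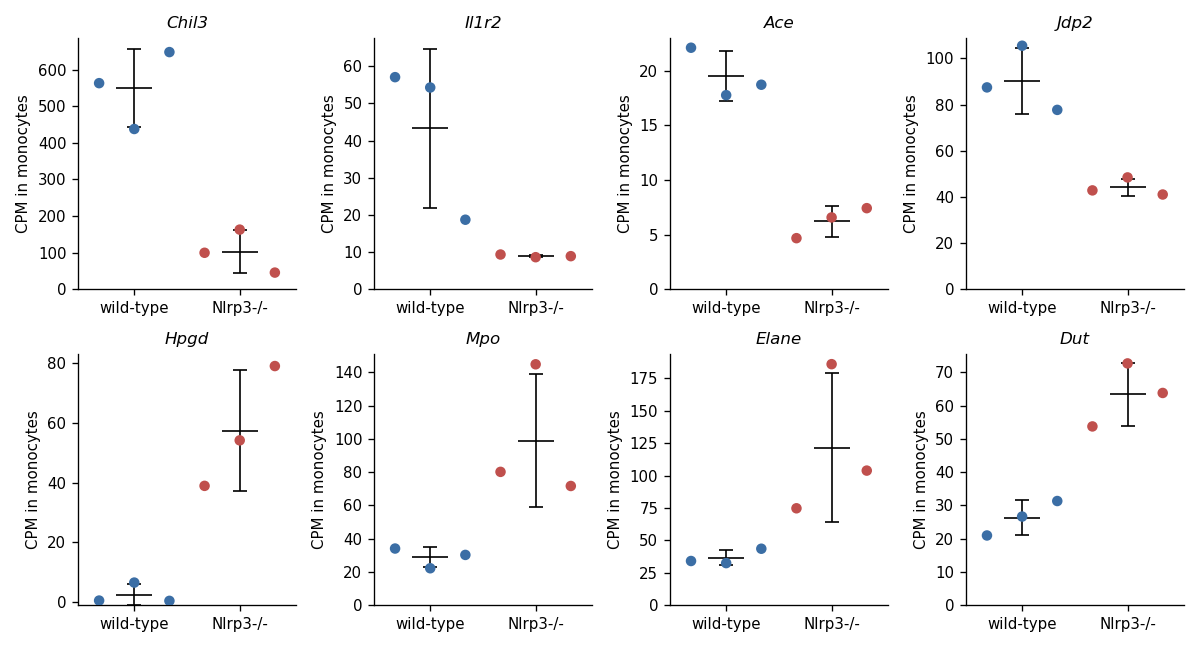
Level in monocytes (CPM, vertical) of 8 genes called between genotypes, with each point a library, blue for wild-type and red for Nlrp3-/-, in replicate order, and black bars for mean ± SD of 3. Chil3, Il1r2, Ace and Jdp2 lie lower and Hpgd, Mpo, Elane and Dut higher in every Nlrp3-/- library.

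Among the genes called higher, Hpgd, the enzyme that inactivates prostaglandin E2, changed the most after the sex-linked genes. It was nearly absent from wild-type monocytes, at 0.460, 6.49 and 0.360 CPM, and stood at 38.9, 54.2 and 79.1 CPM in Nlrp3-/- monocytes (log2 fold change 4.50 ± 0.60, edgeR adjusted p = 0.00861). A Hpgd UMI was found in 2, 10 and 1 wild-type members and in 29, 69 and 75 Nlrp3-/- members. At 1000 UMIs the shares were 0%, 1.00% and 0% of wild-type members, where 0 of 834 and 0 of 474 allow up to 0.360% and 0.633%, and 2.33%, 4.72% and 8.91% of Nlrp3-/- members. Mesenchymal cells, which held Hpgd in all libraries, had shares of 1.99% to 7.46% in wild-type and 1.28% to 2.30% in Nlrp3-/- libraries. Barcodes of at most 100 UMIs held Hpgd at 8.25 to 33.9 CPM in wild-type and 11.4 to 25.3 CPM in Nlrp3-/- libraries. The size of the fold rested on wild-type replicate 2, which held 19 of the 22 wild-type UMIs: without it the log2 fold change was 6.80. Without Nlrp3-/- replicate 3 the call was lost (4.19, adjusted p = 0.0691), as it was when dividing cells were added (2.51, adjusted p = 0.185).

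Genes of marrow precursors were also higher. Mpo, the myeloperoxidase of primary granules, was at 34.1, 22.2 and 30.2 CPM in wild-type and 80.2, 145 and 71.7 CPM in Nlrp3-/- monocytes (1.61 ± 0.26, edgeR adjusted p = 0.0231). Elane, neutrophil elastase, was at 34.1, 32.4 and 43.5 against 74.7, 186 and 104 CPM (1.58 ± 0.26, adjusted p = 0.0272). The groups did not overlap, but few cells carried the RNA. The 7, 11 and 9 wild-type and 15, 10 and 11 Nlrp3-/- members with at least 10 precursor UMIs held 44.9% to 59.8% and 59.7% to 70.4% of the UMIs of the 5 precursor genes. Without these members, in an alternative added after the data were seen, the log2 fold changes were 0.75 for Mpo (adjusted p = 0.341) and 0.66 for Elane (0.378). Without the members carrying T and NK genes they were 0.93 (0.384) and 0.81 (0.068). Both calls were also lost without several single libraries: wild-type replicate 2 (0.118 and 0.146) or Nlrp3-/- replicate 2 (0.0877 and 0.0548) for both, Nlrp3-/- replicate 1 for Mpo (0.0807), and wild-type replicate 1 (0.113) or Nlrp3-/- replicate 3 (0.0978) for Elane. With dividing cells added the log2 fold changes were only 0.33 (0.387) and 0.25 (0.377), and neither gene was called with likely doublets left out (0.128 and 0.161) or after thinning (0.222 and 0.0713). At 1000 UMIs an Elane UMI was seen in 2.23% of wild-type and 4.08% of Nlrp3-/- monocytes, but also in 1.37% and 4.46% of mesenchymal cells. The part of free RNA in these shares was not tested.

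Dut, the dUTPase that guards DNA synthesis, was at 20.9, 26.6 and 31.3 CPM in wild-type and 53.7, 72.7 and 63.8 CPM in Nlrp3-/- monocytes (1.14 ± 0.17, edgeR adjusted p = 0.0153). Also higher were Tvp23b, a Golgi protein gene within 20 Mb of Nlrp3 (1.12, adjusted p = 0.0275), Gcsh of the glycine cleavage system (1.08, 0.0468) and the X-linked histone demethylase Kdm6a (0.89, 0.0254). Dut was no longer called without wild-type replicates 1 or 2 or Nlrp3-/- replicates 2 or 3 (adjusted p 0.0673 to 0.115). It was also lost with likely doublets left out, after thinning, without the T and NK members and without a precursor UMI (0.0646 to 0.331), and with dividing cells added its log2 fold change was 0.28 (0.298). The other 3 kept the call without wild-type replicate 3 and lost it without any 1 of the other 5 libraries (adjusted p 0.0673 to 0.223), and all 3 also lost it without a precursor UMI (0.147 to 0.191). Over all 19 alternatives Tvp23b lost its call in 9, Gcsh in 11 and Kdm6a in 7.

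The same fit was read over gene lists, with each list's count and its median log2 fold change beside the 0.01 of all genes. Of 29 classical monocyte genes outside the rule, 1 was called (Chil3, lower) and the median was -0.12, or 0.03 in unscaled CPM. Ifi27l2a, an interferon-inducible gene, stood at 4671, 2833 and 1560 CPM in wild-type and 965, 955 and 850 CPM in Nlrp3-/- monocytes, and just missed the threshold (-1.89 ± 0.34, edgeR adjusted p = 0.0502). It passed the threshold in 11 of 19 alternatives. With 1 library left out, it passed only without wild-type replicate 3 (edgeR adjusted p = 0.00108). Of 17 nonclassical monocyte genes 1 was called (Ace, lower). Cx3cr1, the fractalkine receptor of patrolling monocytes, was at 38.0, 58.7 and 60.1 against 63.1, 109 and 73.7 CPM and was not called (adjusted p = 0.309). Without wild-type replicate 3, 5 of the 29 classical and 3 of 16 nonclassical genes were called, against 7.84% of all genes. With all 6 libraries 3 classical genes were higher and 4 lower without overlap, against backgrounds of 14.8% and 4.39%.

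For the inflammasome and pyroptosis list, Nlrp3 and Il1r2 were the 2 called of 18 genes, and the median was -0.23. Il1b was at 971, 1155 and 2027 CPM in wild-type and 2004, 1009 and 2041 CPM in Nlrp3-/- monocytes, so its RNA did not separate the groups (log2 fold change 0.17 ± 0.30, edgeR adjusted p = 0.834). At 1000 UMIs, 53.4% ± 13.9 and 59.5% ± 10.5 of monocytes held an Il1b UMI (exact permutation p = 0.8). In mesenchymal cells the share was 3.38% to 4.73% in wild-type libraries and 31.9%, 1.23% and 2.99% in Nlrp3-/- replicates 1 to 3, and Il1b in barcodes of at most 100 UMIs was at 473 to 731 CPM in wild-type and 857, 213 and 364 CPM in Nlrp3-/- libraries. Their part in the monocyte shares was not tested. Pycard, the adaptor ASC (395 to 422 against 403 to 491 CPM), and Casp1 (49.6 to 59.1 against 48.5 to 60.7 CPM) overlapped too. Gsdmd, whose product forms the pyroptotic pore, was at 65.1, 50.2 and 45.3 against 35.8, 32.0 and 31.1 CPM. Ninj1, needed for rupture of the dying cell, was at 186, 219 and 126 against 122, 123 and 124 CPM. Neither passed the test (-0.88, adjusted p = 0.144, and -0.69, 0.225), though both did without wild-type replicate 3 (0.0139 and 0.00574), as did Il18 (-0.91, 0.0253), lower, and Nek7 (0.77, 0.0191), higher. The ATP receptor P2rx7, which acts upstream of NLRP3, was at 16.5 to 29.4 against 23.7 to 30.0 CPM.

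None of 24 inflammatory cytokines and chemokines was called (median -0.27). Wild-type replicate 3 stood apart from the other wild-type libraries in several of them. Il6 was at 40.0, 34.8 and 410 CPM in wild-type and 320, 146 and 180 CPM in Nlrp3-/- monocytes, and Ptgs2, the inducible cyclooxygenase, at 89.7, 124 and 690 against 453, 232 and 402 CPM. Cxcl2, the most abundant, reached 3355 to 5302 CPM in wild-type and 3158 to 7767 CPM in Nlrp3-/- monocytes. Il6, Ptgs2 and Cxcl2 all overlapped between the groups, and Tgfb1 was the 1 gene of the list that did not (240, 228 and 194 against 162, 184 and 180 CPM; edgeR adjusted p = 0.228), a share like the 4.39% of all genes that were lower without overlap. Without wild-type replicate 3, 6 of 25 genes were called, against 7.84% of all genes in that fit: Il6 (2.31), Ptgs2 (1.58) and Ccl3 (0.75) higher, and Cxcl16 (-1.29), Tgfb1 (-0.62) and Ccl9 (-0.47) lower. Without the filter on low counts 7 of 28 were called, all lower (Il10, Il1a, Cxcl3, Cxcl1, Cxcl9, Ccl24 and Cxcl16), against 2.76% of all genes in that fit. With likely doublets left out Ccl5 was called lower (-3.58, adjusted p = 0.047). Immediate-early genes, which dissociation of tissue can induce, had none called of 22 and a median of -0.04 (4 of 22 and 0.09 without wild-type replicate 3). Nr4a1 among them was at 237, 190 and 564 against 350, 407 and 421 CPM, and was called higher only without wild-type replicate 3 (0.67, edgeR adjusted p = 0.0275).

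Interferon-stimulated genes leaned lower in Nlrp3-/- monocytes without any passing the test. Of 39 tested, 35 had a negative log2 fold change (31 in unscaled CPM), the median was -0.47, and 11 were below wild-type without overlap, against a background of 4.39% for that direction. Isg15 stood at 289, 297 and 126 CPM against 185, 102 and 149 CPM (-0.88, edgeR adjusted p = 0.295), and Ifitm3 at 6193, 5498 and 3372 against 3279, 3111 and 2967 CPM (-0.85, 0.205). The share of monocytes with an Isg15 UMI at 1000 UMIs was 16% ± 4.29 against 7.88% ± 1.81 (exact permutation p = 0.1). It moved the same way in mesenchymal cells, from 7.71% to 3.85%, and the part of free RNA in it was not tested. At 2000 UMIs the groups overlapped (exact permutation p = 0.2). Within wild-type, replicate 3 was the lowest for Isg15, Irf7 and Ifi27l2a, and without it 18 of the 39 genes passed the edgeR test, against 7.84% of all genes, with a median of -0.64. DESeq2 called 8 of the 39 on all 6 libraries, against 1.18% of all genes, and 17 of 40 were called without the filter on low counts, against 2.76%.

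MHC class II and monocyte-derived dendritic genes had 13 of 14 negative values, a median of -0.61 and none called. Cd74 was at 2858, 3174 and 1633 CPM in wild-type and 954, 941 and 2078 CPM in Nlrp3-/- monocytes (-1.12, edgeR adjusted p = 0.223), and H2-Ab1 at 859, 976 and 537 against 298, 294 and 752 CPM (-0.99, 0.283). Nlrp3-/- replicate 3 lay inside the wild-type range, so every gene of this list overlapped between groups. Without wild-type replicate 3, 3 of 14 genes were called, against 7.84% of all genes, and the median was -0.78. Without the filter on low counts 9 of 18 were called, against 2.76% of all genes. The 4 tissue macrophage markers tested, Mrc1, Pf4, Ms4a7 and Apoe, were negative too, with a median of -0.62 and none called. The summed CPM of all 9 such markers was 1525 to 2487 in wild-type and 1220 to 2034 in Nlrp3-/- members, each marker was seen in every library, and their part in the lean was not tested. An H2-Ab1 UMI was found in 21.3% ± 2.57 and 15.2% ± 5.13 of monocytes at 1000 UMIs (exact permutation p = 0.2). In Nlrp3-/- replicate 1 the share of monocytes, 13.2%, did not exceed that of mesenchymal cells, 14%, while mesenchymal cells held 2.27% to 4.54% in the other 5 libraries. The part of free RNA in the monocyte shares was not tested.

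The opposite lean was seen in 2 lists, marrow precursor and cell cycle genes. Some markers of other cells also had positive medians with none called: T and NK (1.34), erythroid (3.91), mesenchymal (0.61), endothelial (0.31) and osteoclast (0.08). Negative medians were those of B cell (-0.24), neutrophil (-1.18), tissue macrophage (-0.62), plasmacytoid (-0.17) and conventional dendritic (-0.15) markers. Of 14 marrow precursor genes 11 were positive, 8 were higher in every Nlrp3-/- library against a background of 14.8%, and the median was 0.40. Beyond Mpo and Elane, Prtn3, a serine protease of the same granules, was at 188, 227 and 188 against 403, 370 and 291 CPM (0.67, edgeR adjusted p = 0.193) and Ctsg at 37.5, 25.6 and 63.3 against 84.1, 137 and 76.1 CPM (1.10, 0.188). At 1000 UMIs, 12.3% ± 2.33 of wild-type and 22.7% ± 4.93 of Nlrp3-/- members had a UMI of the 5 precursor genes (exact permutation p = 0.1). Mesenchymal cells moved the same way, from 4.46%, 4.66% and 3.93% to 16.5%, 8.80% and 4.82% in replicates 1 to 3, and the part of free RNA in the shares was not tested. Of 25 cell cycle genes outside the rule, 20 were positive, 14 were higher without overlap, the median was 0.37 and Dut was called. The rule had removed cells with a Mki67 or Top2a UMI, whose share was higher in the Nlrp3-/- libraries. The part of dividing cells that this limit missed was not tested. The helicase subunit Mcm7 was at 10.1, 15 and 12.9 against 31.9, 29.1 and 29.7 CPM (1.10, adjusted p = 0.0581) and Mcm3 at 11.3, 17.8 and 16.5 against 31.1, 36.5 and 27.2 CPM (0.92, 0.154). Without wild-type replicate 3, where 7.84% of all genes were called, Ctsg (edgeR adjusted p = 0.0161), Mcm7 (0.0231) and Mcm3 (0.0408) passed. Prtn3 did not (0.0708). Over 18 alternatives Mcm7 passed in 4, Ctsg in 3, and Mcm3 and Prtn3 in 2 each. Without the members carrying T and NK genes the medians were 0.37 and 0.36, and without the 63 members rich in precursor RNA 0.25 and 0.34. Among members without any UMI of the 5 precursor genes they were -0.07 over 8 precursor genes and -0.03 over 16 cell cycle genes. That choice of members uses the precursor genes themselves and leaves fewer genes tested.

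**Figure D5:**
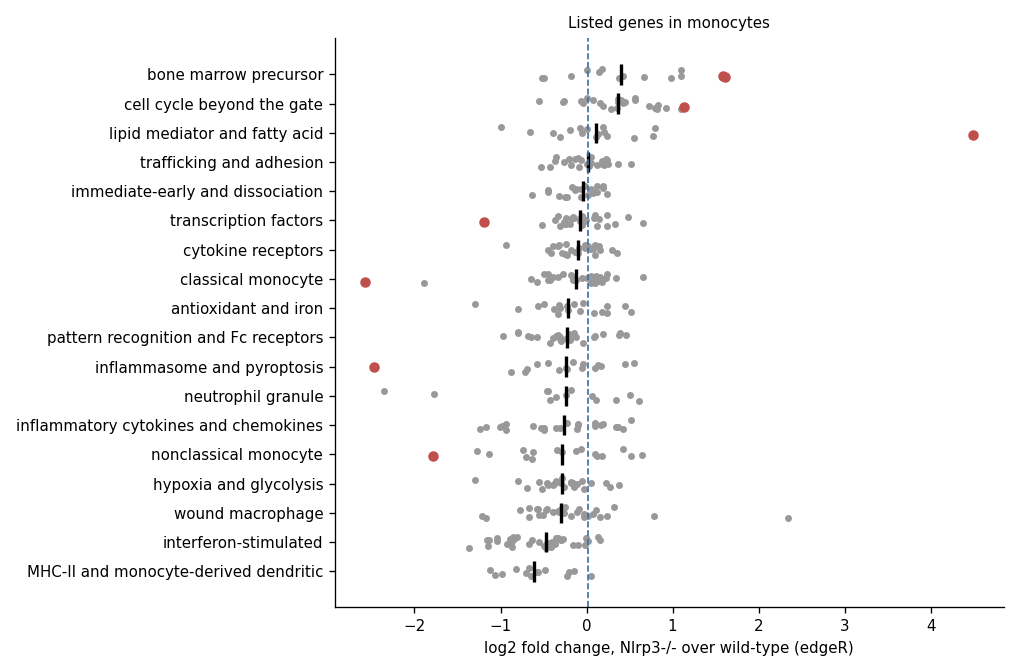
Log2 fold change (edgeR, Nlrp3-/- over wild-type, horizontal) in monocytes of the genes of 18 lists (rows), without the genes of the rule and without Nlrp3. Grey points were not called, red points had an adjusted p below 0.05, black bars are list medians (the inflammasome median includes Nlrp3), and the dashed line is the median of all 9429 genes; medians run from -0.61 for MHC class II to 0.40 for marrow precursor genes.

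The remaining lists held few calls with all 6 libraries. Without wild-type replicate 3, where 7.84% of all genes were called, 7 of 25 hypoxia and glycolysis genes passed the test, 8 of 31 wound macrophage, 5 of 17 lipid mediator, 5 of 29 pattern recognition, 4 of 25 cytokine receptor, 4 of 19 antioxidant, 2 of 13 neutrophil granule, 3 of 32 transcription factor and 1 of 25 trafficking genes. Without the filter on low counts, where 2.76% of all genes were called, the same lists had 3 of 26, 8 of 37, 3 of 23, 6 of 30, 1 of 25, 3 of 21, 3 of 17, 3 of 34 and 0 of 25. Hypoxia and glycolysis genes had 21 of 25 negative values (17 in unscaled CPM), a median of -0.29 and none called. The closest was Slc16a3, the lactate exporter, at 85.6, 86.7 and 94.6 against 60.7, 58.3 and 64.3 CPM (-0.70, edgeR adjusted p = 0.0597). Wound macrophage genes (0 of 31, median -0.29) included Spp1, at 534, 833 and 263 against 434, 613 and 296 CPM. Arg1 was at 27.6, 23.9 and 40.3 against 74.0, 2.05 and 2.47 CPM, where Nlrp3-/- replicate 1 stood far above the other 2. In that library at 1000 UMIs, an Arg1 UMI was in 3.11% of monocytes but in 6.92% of mesenchymal cells. The part of free RNA in its Arg1 level was not tested. Without that library Arg1 was called lower (-3.92, edgeR adjusted p = 0.00339), as it was in members with at least 3 Ly6c2 UMIs (-3.53, 0.00106). Gdf3, a growth factor of repair macrophages, was at 0.920, 2.39 and 0.719 against 7.01, 6.98 and 8.90 CPM (2.34, adjusted p = 0.0827). It was called in 4 of 15 alternatives, among them without wild-type replicate 3 (edgeR adjusted p = 0.039). Lipid mediator genes had 1 of 17 called (Hpgd, higher; median 0.11) and transcription factors 1 of 30 (Jdp2, lower; -0.07). None was called among 24 trafficking genes (0.02), 25 cytokine receptors (-0.10), 29 pattern recognition and Fc receptors (-0.22), 19 antioxidant and iron genes (-0.21) or 13 neutrophil granule genes (-0.24). For classical monocyte, cytokine receptor, immediate-early and transcription factor genes the median was above 0 in unscaled CPM and below it after TMM scaling.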

How the data were processed

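Single-cell RNA sequencing was performed on enthesis cells of 6 libraries, 3 wild-type and 3 Nlrp3-/-, grouped by their titles. The authors deposited raw matrices of UMI counts per gene and barcode (32285 genes), without cell calling or normalization. The submitters' processing notes name Cell Ranger 2.1.1 and mm10, and the file headers Cell Ranger 4. Counting of strand was not given in the sources used here.

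Cells and members were selected as described above. Members, gene lists and tests were chosen with earlier results of these data known. Counts were summed over the members of a library and scaled to CPM (1e+06 divided by the library's member UMIs). Genotypes were compared with edgeR 4.0.16 in R 4.3.3 (quasi-likelihood test, TMM, filterByExpr, Benjamini-Hochberg, threshold 0.05), without covariates. Named genes are the genes of the rule, the 4 markers and the inflammasome list. They also include up to 12 called genes per direction by log2 fold change, with a mean of at least 20 CPM, no overlap and no predicted-gene symbol, up to 12 per direction against C1q macrophages, the 15 most variable genes, and called or abundant genes of each list. Ifi27l2a, Slc16a3, Gdf3, Gsdmd, Ninj1, Mcm7, Mcm3, Cx3cr1, Arg1, Il6, Tgfb1 and the cytokines called in single alternatives were added, or kept, after their values were seen. Marker lists of mesenchymal, endothelial, mast cell, plasmacytoid and conventional dendritic cells, osteoclasts, neutrophils and tissue macrophages were also summed: their CPM in members reached 301, 157, 149, 517, 30.0, 559, 2090 and 2487 in wild-type and 483, 194, 10.4, 427, 29.2, 371, 1458 and 2034 in Nlrp3-/- libraries at most.

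Shares were compared by exact two-sided permutation over the 20 assignments of libraries, after random thinning of each cell to 1000 UMIs where stated. Wilson 95% intervals and the limit of 3 counts cover counting error only. In simulated counts with known changes over 9176 genes, 98.9% of 4-fold and 33.0% of 2-fold changes were called, with 5 false calls. The simulation gave every gene the same relative spread between libraries and held no outlying library, so these rates need not hold for the data. Of the gene identifiers, 32235 matched the GENCODE annotation of GRCm38. Promoter sequence is from RefSeq (GRCm38.p6). Alternatives covered scaling, filtering, DESeq2 1.42.0, a replicate block, single libraries left out, limits of the rule, likely doublets, depth and added subsets of cells. One gene chosen by the rule for named genes is not reported here.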

Additional observations from a re-analysis of the deposited data

How the results depend on the processing

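The count of 35 called genes became 484 without the filter on low counts, 111 with DESeq2 (24 of them shared, with adjusted p missing for 3294 genes), and 14 to 748 when 1 library was left out, with the highest value without wild-type replicate 3. RLE size factors gave 37 genes (35 shared), at least 2000 UMIs 37 (34 shared), Ly6c2 of at least 3 UMIs 48 (30 shared), no C1q UMI 36 (32 shared), likely doublets left out 33 (22 shared) and thinning to 1000 UMIs 26 (14 shared). Of the alternatives chosen after seeing the data, dividing cells added gave 42 (26 shared), no precursor UMI 29 (18 shared), no T and NK members 32 (30 shared) and no members of 10 or more precursor UMIs 38 (32 shared). With the replicate block 24 genes were called (22 shared). Numbers were not paired: same-numbered libraries deviated with correlations of -0.10, -0.29 and -0.04. The block ended the calls of Mpo, Elane, Tvp23b, Gcsh, Kdm6a, Wdfy1 and Ace among the named genes, and brought Ifi27l2a past the threshold (adjusted p = 0.0367).

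Reversed log2 fold changes belonged to genes that were not called. For Pycard they were 0.0643 with likely doublets left out, 0.0238 without a precursor UMI and up to 0.0293 with 1 library left out (without wild-type replicates 1 or 2 or Nlrp3-/- replicate 3), from a lowest -0.10. Il1b ranged from -0.0143 (without Nlrp3-/- replicate 1, and -0.0012 without wild-type replicate 1) to 0.48 (without wild-type replicate 3) when 1 library was left out. Casp4 gave 0.0021 without a precursor UMI. P2rx7 gave 0.77 after thinning and -0.30 to 0.10 with 1 library left out, above 0 without wild-type replicates 1 and 2 and Nlrp3-/- replicate 3. Arg1 gave 0.61 with likely doublets left out, 0.17 without a precursor UMI and -3.92 to 0.12 with 1 library left out. Cxcl2 gave -0.0504 with the replicate block. With 1 library left out, Cxcl2 ranged from -0.52 to 0.35, Il6 from -0.12 to 2.31, Nr4a1 from -0.14 to 0.67 and Ptgs2 from -0.23 to 1.58, the last 3 highest, and called, without wild-type replicate 3. Panx1 gave 0.0441 with dividing cells added and 0.19 without a precursor UMI. The difference of -0.009 percentage points in monocytes with an Arg1 UMI ranged from -0.97 (without Nlrp3-/- replicate 1) to 0.48 with 1 library left out. The cause was not tested. The shares could not reach p below 0.1 with 3 libraries a group, and precision for genes under about 20 CPM was limited by the 257 members of Nlrp3-/- replicate 1.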
